A study of Mus musculus with 24 samples.

Results

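The RNA of 10 liver enzymes that break down amino acids or handle folate-bound carbon was measured in mouse liver by RNA-seq: Ftcd, Uroc1, Hal, Sds, Gls2, Tat, Tdo2, Fah, Aspg and Aldh1l1. They were chosen by name, with earlier results of these data known. They are 10 of the 35974 gene symbols in the deposited table, and all 10 were among the 4875 genes tested. The 24 libraries came from livers of strain C3H/HeJ and are titled by genotype, by a number (1 to 4) and by a final digit (2, 4 or 8). The transgenic (TGA) libraries form 3 groups (class 2, class 4 and class 8), the wild type (WT) libraries form the same 3, and each of the 6 groups holds 4 libraries. The labels name neither the transgene nor its promoter, give no age, and do not say what the final digit stands for. A reading of that digit as hepatocyte ploidy, the number of genome copies in a cell, rests only on the title of the series, and it is called the class below. RNA was taken with a kit for fixed, paraffin-embedded tissue. The labels do not say that libraries of a group come from separate animals, or whether libraries sharing genotype and number come from the same animal, so every p-value reflects only how these libraries scatter, and that scatter may be technical.

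Histidine is broken down in hepatocytes in an ordered series of steps. Histidine ammonia-lyase (Hal) makes urocanate, urocanate hydratase (Uroc1) acts on it, and formimidoyltransferase cyclodeaminase (Ftcd) hands the remaining one-carbon fragment to tetrahydrofolate. Aldh1l1, formyltetrahydrofolate dehydrogenase, returns folate from its formyl form by releasing the carbon as carbon dioxide. Serine dehydratase (Sds) turns serine into pyruvate, the liver-type glutaminase Gls2 releases ammonia from glutamine, and Aspg is an asparaginase. Tyrosine aminotransferase (Tat) opens tyrosine breakdown, fumarylacetoacetate hydrolase (Fah) closes it, and tryptophan dioxygenase (Tdo2) opens tryptophan breakdown. Hal, Sds and Gls2 are known as enzymes of the periportal zone of mouse liver, and Tat and Tdo2 as targets of glucocorticoids.

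All values below are given as log2(normalised count + 1), on the assumption that the deposited scale is a natural log of count + 1. Many values are exactly 0. Genes that every cell uses were also listed at 0 (Gapdh in 19 of 24 libraries, Actb in 14), so a 0 is given as listed, and each library is shown. Over all tested genes 54.1% of values were 0, against 38.3% of the 240 values of the 10 enzymes. The number of genes above 0 ranged between 1624 and 15147 per library. The libraries WT number 1 class 2, WT number 1 class 4, TGA number 3 class 8 and WT number 4 class 2 stood apart with over 7000 genes, and the calls below are given with and without them. Each of 10 hepatocyte markers (Alb, Apoa1, Apob, Ttr, Trf, Serpina1e, Cps1, Fgb, Ahsg, Hnf4a) was above 0 in at least 1 library of each genotype. Single libraries held as few as 3 of them in WT (number 1 class 8, numbers 3 and 4 class 4). In TGA they held as few as 6 (number 3 class 4, number 1 class 8). Alb was listed at 0 in 0 of 12 TGA libraries and 5 of 12 WT libraries. The summed level of these markers lay between 53.2 and 96.6 in TGA libraries and between 20.5 and 89.1 in WT libraries. The other cell types' lists stayed lower: the summed level of the 8 endothelial markers reached 6.81 in TGA libraries and 12.4 in WT libraries, and that of the 8 Kupffer cell and macrophage markers reached 4.93 in TGA and 15.4 in WT libraries. The 8 stellate cell markers reached 7.99 in TGA and 11.6 in WT libraries, and the 6 cholangiocyte markers 10.6 in TGA and 6.68 in WT libraries. The 7 lymphocyte markers reached 4.95 in TGA and 7.32 in WT libraries, and the 5 erythroid markers 1.77 in TGA and 0.415 in WT libraries. Each of these 6 lists had a lowest sum of 0 in both genotypes.

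The windows of 250 bases before the RefSeq start of Ftcd, Uroc1 and Aldh1l1 are shown because these genes lead the differences described below. Capitals mark matches, on either strand, to the TATA box TATAAA, the C/EBP core TTGCNNAA, the glucocorticoid receptor motif AGAACA, the long HNF4 core CAAAGTCC, the HNF1 motif GTTAAT, the FOXA core TGTTTNC and the cAMP response element TGACGTCA. All windows are 5′ to 3′ on the plus strand of GRCm38.p6, a build other than the mm9 of the deposited table. The Ftcd window is chr10:76575398-76575647, the Uroc1 window chr6:90333039-90333288 and the Aldh1l1 window chr6:90550543-90550792.
Ftcd: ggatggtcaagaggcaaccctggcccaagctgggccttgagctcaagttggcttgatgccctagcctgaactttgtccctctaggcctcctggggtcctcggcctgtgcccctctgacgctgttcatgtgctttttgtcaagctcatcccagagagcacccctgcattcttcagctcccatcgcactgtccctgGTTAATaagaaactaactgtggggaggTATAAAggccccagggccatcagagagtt
Uroc1: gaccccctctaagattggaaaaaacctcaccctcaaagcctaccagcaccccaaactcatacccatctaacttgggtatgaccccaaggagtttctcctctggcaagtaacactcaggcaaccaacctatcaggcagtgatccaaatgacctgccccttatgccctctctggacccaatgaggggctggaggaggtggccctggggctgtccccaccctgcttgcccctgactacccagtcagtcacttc
Aldh1l1: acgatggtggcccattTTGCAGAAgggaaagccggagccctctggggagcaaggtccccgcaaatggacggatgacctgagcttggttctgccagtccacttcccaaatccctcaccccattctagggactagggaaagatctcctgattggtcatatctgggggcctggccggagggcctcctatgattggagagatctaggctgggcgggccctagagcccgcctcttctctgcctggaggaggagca
In the Ftcd window TATAAA lay at positions −29 to −24 and GTTAAT at −56 to −51, counted from the start (the base before the start is −1). The Aldh1l1 window held TTGCAGAA, a match to the C/EBP core, at −234 to −227. RefSeq windows were at hand for 8 of the 10 enzymes, without Sds and Gls2. TATAAA stood in 3 of these 8 (Ftcd, Hal and Tdo2) and in 12.4% of all 32851 windows of that length. TTGCNNAA stood in 2 (Hal and Aldh1l1) against 9.56% of all windows, GTTAAT in 1 (Ftcd) against 6.43%, and TGTTTNC in 1 (Tdo2) against 17.8%. AGAACA, CAAAGTCC and TGACGTCA were in 0 of the 8 windows, against 16.1%, 1.20% and 1.55% of all windows. The shorter CAAT box CCAAT, the HNF4 core CAAAG, a part of its longer form, and the motif TGACG, a part of the cAMP response element, are not in capitals. They stood in 5, 3 and 1 of the 8 windows, against 33.9%, 48.6% and 17.8% of all.

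**Figure D1:**
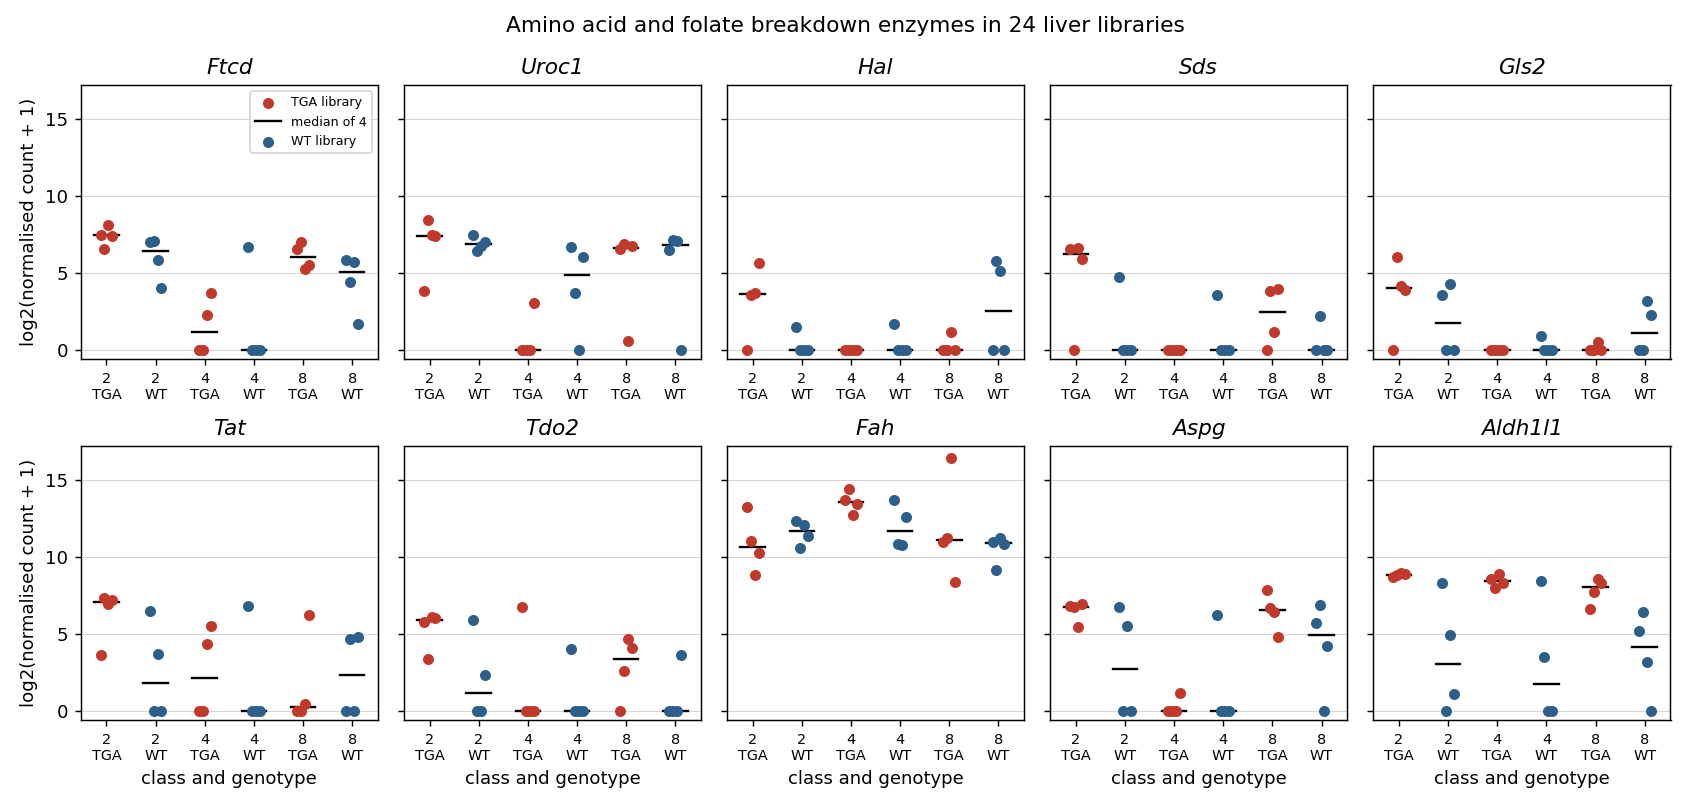
Level of each of the 10 enzymes as log2(normalised count + 1) on the vertical axis, by class (2, 4, 8) and genotype on the horizontal axis. Each point is 1 library and each bar the median of 4. Aldh1l1 lies between 6.64 and 8.93 in all 12 TGA libraries but between 0 and 8.44 in WT libraries, and Ftcd is at 0 in 2 of 4 TGA and 3 of 4 WT class 4 libraries.

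The first question was whether the enzymes differed between TGA and WT livers over all classes. Aldh1l1 was higher in TGA. It was above 0 in 12 of 12 TGA libraries and in 8 of 12 WT libraries. In TGA libraries numbered 1 to 4, Aldh1l1 stood at 8.73, 8.84, 8.93 and 8.88 in class 2, at 8.59, 7.97, 8.87 and 8.34 in class 4, and at 6.64, 7.74, 8.54 and 8.32 in class 8. In WT libraries in the same order, Aldh1l1 stood at 8.31, 0, 4.94 and 1.14 in class 2, at 8.44, 3.52, 0 and 0 in class 4, and at 5.17, 6.42, 3.17 and 0 in class 8. The TGA libraries lay close together, and only the WT class 2 and class 4 libraries of number 1 reached their range, so the genotypes overlapped. By median level the groups ran TGA class 2 (8.86), TGA class 4 (8.46), TGA class 8 (8.03), WT class 8 (4.17), WT class 2 (3.04) and WT class 4 (1.76). Neighbouring groups overlapped at every step except between TGA class 8 and WT class 8, where the highest WT value (6.42) stayed under the lowest TGA value (6.64).

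The class values of each genotype and number were averaged before the test. The means of Aldh1l1 for numbers 1 to 4 were 7.99, 8.18, 8.78 and 8.52 in TGA, against 7.31, 3.31, 2.70 and 0.38 in WT, so that the lowest TGA mean exceeded the highest WT mean. The log2 difference was 4.94 (SE 1.05; limma with Benjamini-Hochberg adjustment over 4875 genes, adjusted p = 0.00275). The SE of limma draws on the spread of other genes, and the SE from these 8 means alone was 1.45. A two-sided exact permutation test of the same means gave p = 0.0286, the smallest that 70 assignments allow. This p is not adjusted over the 10 enzymes, which were chosen with earlier results of these data known. Of all tested genes 24 passed, which is 0.492%, and 12 of them, 0.246%, were higher in TGA. Aldh1l1 was the 1 enzyme of the 10 that passed. Without the libraries of WT number 4 its difference was 3.92 (limma, adjusted p = 0.0766). Without the 4 libraries that hold over 7000 genes it was 5.60 (limma, adjusted p = 0.00408), with 84 of all genes, 1.72%, passing. That setting drops WT number 1 class 2 and class 4, the only WT libraries in the TGA range. The WT number 1 mean then rested on class 8 alone, at 5.17 in place of 7.31. WT number 4 lacked class 2 and TGA number 3 lacked class 8, so the means were uneven over class. The call was also lost with each library centred on its own median (4.54, limma adjusted p = 0.243), with no filter on low values (limma, adjusted p = 0.226) and with no mean-dependent trend (limma, adjusted p = 0.0960). The hepatocyte markers moved with the genotype too, with a median summed level of 73.4 in TGA and 37.9 in WT libraries, and their part in the difference of Aldh1l1 was not tested. In bulk RNA, fewer cells of a type and less RNA per cell cannot be told apart.

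Within each class, the Aldh1l1 difference between TGA and WT was 5.25 in class 2, 5.45 in class 4 and 4.12 in class 8 (SE 1.63 each). None of these passed on its own in the limma test over 24 libraries, with adjusted p of 0.297, 0.823 and 0.422. In that test 5 genes (0.103%) passed in class 2, 1 gene (0.0205%) in class 4 and 1 gene (0.0205%) in class 8, with 0 of the 10 enzymes in each. At an unadjusted p under 0.05 the test gave 425 genes (8.72%) in class 2, 207 (4.25%) in class 4 and 476 (9.76%) in class 8. Without WT number 1, the number with the most genes detected, Aldh1l1 passed in class 2 (6.82, limma adjusted p = 0.0183) and in class 4 (7.27, limma adjusted p = 0.0122). In that setting 50 genes, 1.03%, passed in class 2 and 9 genes, 0.185%, in class 4.

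The other 9 enzymes did not pass between TGA and WT over all classes. Tdo2 came nearest by its unadjusted p, with a difference of 1.96 (SE 0.97; limma, adjusted p = 0.546). It was above 0 in 8 of 12 TGA libraries and 4 of 12 WT libraries. The differences of Aspg (1.48), Sds (1.46), Tat (1.27), Ftcd (0.96) and Fah (0.68) were positive with adjusted p of at least 0.587 in limma. Leaving out 1 number moved these widely: Ftcd to 0.24 without WT number 4 and 1.79 without WT number 1, Tat to 0.33 without TGA number 4, Fah to 0.29 without WT number 2 and Aspg to 2.57 without WT number 1. Without the 4 libraries over 7000 genes, the difference of Tat was 2.61 and that of Sds 2.33, on means that were uneven over class. Hal and Gls2 differed by 0.00 and 0.03, and Uroc1 was the one negative value at −1.16, or −0.47 without these 4 libraries and −0.64 without TGA number 3. The median difference of the 10 enzymes was 1.11, beside 0.12 over all genes tested. Exact permutation p for these 9 enzymes, also unadjusted, lay between 0.0857 for Tdo2 and 1 for Hal.

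**Figure D2:**
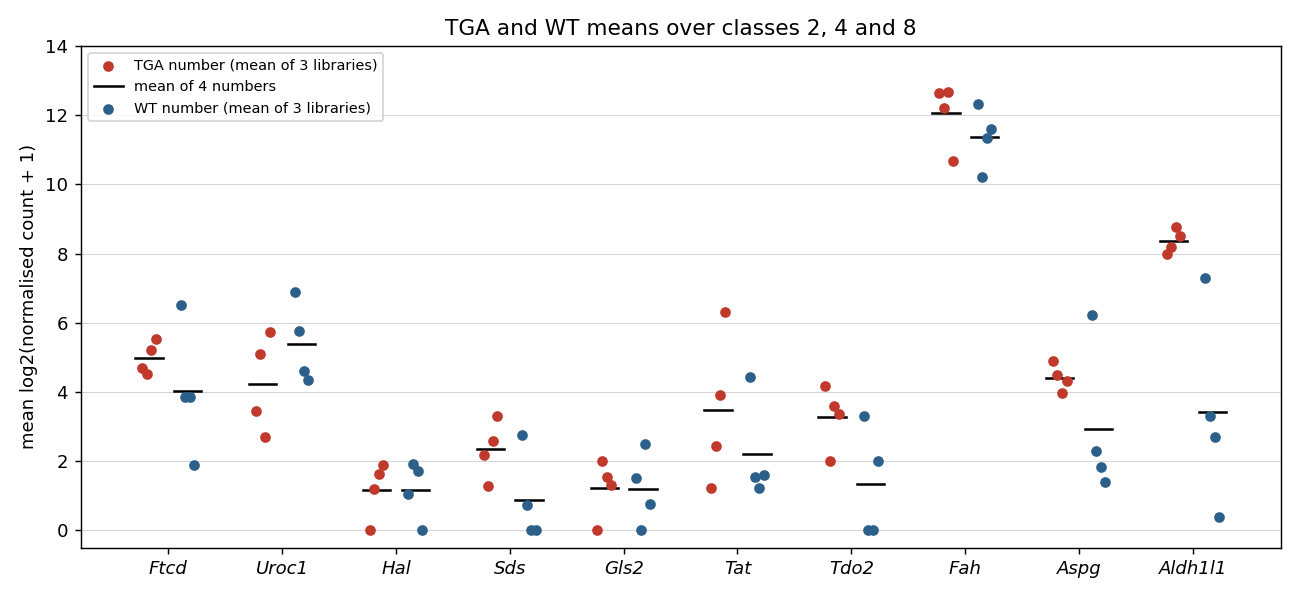
Mean log2(normalised count + 1) over classes 2, 4 and 8 for each of the 4 numbers of TGA (left of each pair) and WT (right), by enzyme. Bars are means of the 4 numbers. For Aldh1l1 the lowest TGA mean is 7.99 and the highest WT mean 7.31; for the other 9 enzymes TGA and WT points overlap.

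In TGA class 2, 37 of 40 enzyme values were above 0, against 25 of 40 in WT class 2. Sds stood at 6.57, 0, 6.59 and 5.92 in TGA class 2, against 4.72, 0, 0 and 0 in WT class 2. Tat stood at 3.65, 7.35, 6.94 and 7.22 in TGA class 2, against 6.49, 0, 3.70 and 0 in WT class 2. Tdo2 stood at 5.81, 3.37, 6.12 and 6.01 in TGA class 2, against 5.90, 0, 0 and 2.36 in WT class 2. In each of these the TGA class 2 and WT class 2 libraries overlapped, and WT number 1 was the highest WT library. Hal stood at 0, 3.56, 3.68 and 5.65 in TGA class 2, against 1.51, 0, 0 and 0 in WT class 2. The class 2 differences were 3.74 for Tat, 3.59 for Sds, 3.43 for Aspg, 3.26 for Tdo2 and 2.84 for Hal. With Aldh1l1 these were the 6 enzymes of 10 with an unadjusted p under 0.05 in limma, against 8.72% of all genes tested. The enzymes were chosen with earlier results of these data known. The median difference over the 10 enzymes was 3.05, beside 0.15 over all genes tested. The hepatocyte markers summed to between 83.3 and 96.6 in TGA class 2, against 34.2 to 84.4 in WT class 2, and the part of these markers was not tested.

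The second question was how the enzymes differed between classes. Ftcd fell in class 4 relative to class 2, and Uroc1 did not pass. In class 4, Ftcd stood at 0, 0, 2.29 and 3.70 in TGA numbers 1 to 4 and at 6.69, 0, 0 and 0 in WT numbers 1 to 4. In class 2, Ftcd stood at 7.48, 6.58, 8.10 and 7.39 in TGA and at 7.03, 7.10, 5.87 and 4.01 in WT. Every class 4 library except WT number 1 lay under the lowest class 2 library. Within each genotype and number, Ftcd was lower in class 4 than in class 2 in 8 of 8 cases, by 0.33 to 7.48. Such pairs match libraries by title only and were not used in the main tests, so all pair counts are given as description. How many of all genes were lower in every pair was not counted. At an unadjusted p under 0.05 in limma over both genotypes, 510 genes were lower in class 4 and 153 higher. Over both genotypes the class 4 minus class 2 difference of Ftcd was −5.11 (SE 1.08; limma, adjusted p = 0.0254). In this comparison 15 of the 4875 genes passed, 0.308%, all 15 of them lower in class 4, again 0.308%, and Ftcd was the 1 enzyme of the 10 among them.

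The Ftcd call was lost without any of 5 numbers. Leaving one out gave limma adjusted p of 0.0958 (TGA number 1), 0.116 (TGA number 2), 0.106 (TGA number 3), 0.167 (WT number 2) and 0.115 (WT number 3), with differences between −5.12 and −4.65. Without the 4 libraries over 7000 genes, among them the class 4 library WT number 1, the difference was −6.19 (limma, adjusted p = 0.00171), and 32 of all genes, 0.656%, passed. With genes detected per library in the model it was −4.76 (limma, adjusted p = 0.0559), with median centring −5.81 (limma, adjusted p = 0.0709), and with no filter the adjusted p was 0.203. The libraries of class 4 held fewer genes above 0 (median 2650.5) than those of class 2 (median 4328.5), and their hepatocyte markers summed to a median of 55.1, against 83.9 in class 2. In TGA class 4, 8 of these 10 markers were above 0 in at least 1 library, with Ttr and Fgb listed at 0 in all 4. TGA class 4 numbers 1 to 4 held 7, 8, 6 and 8 of the markers, against 10 in each TGA class 2 library. The part of the hepatocyte markers in these differences was not tested.

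Uroc1, an earlier step of the same pathway, stood in class 4 at 0, 0, 0 and 3.06 in TGA and at 6.71, 3.71, 0 and 6.02 in WT. In class 2 Uroc1 stood at 3.81, 8.41, 7.47 and 7.39 in TGA and at 7.43, 6.43, 6.76 and 7.02 in WT. The class 4 value was the lower in 8 of 8 pairs of the same genotype and number, and in TGA the 2 classes did not overlap. The difference over both genotypes was −4.40 (SE 1.18; limma, adjusted p = 0.0805) and did not pass. A stricter filter, a deposited value of at least 1 in 8 or more libraries, left 2105 genes to test. There the difference of Uroc1 was again −4.40 and passed (limma, adjusted p = 0.0436), as did 36 genes in all. Hal, which opens the pathway, was above 0 in 1 of 8 class 4 libraries (1.68 in WT number 1) and in 4 of 8 class 2 libraries, with a difference of −1.59 (SE 0.91; limma, adjusted p = 0.433).

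Aspg stood in class 4 at 0, 0, 0 and 1.19 in TGA and at 6.26, 0, 0 and 0 in WT. In class 2 Aspg stood at 6.80, 6.74, 5.47 and 6.96 in TGA and at 6.75, 0, 5.51 and 0 in WT. The TGA classes were far apart, while 2 WT libraries of class 2 were at 0 already. The difference over both genotypes was −3.85 (SE 1.17; limma, adjusted p = 0.155). Sds and Gls2 were each above 0 in 1 of 8 class 4 libraries, WT number 1, against 4 of 8 class 2 libraries for Sds and 5 of 8 for Gls2. Tat was above 0 in 3 of 8 class 4 libraries and 6 of 8 class 2 libraries, and Tdo2 in 2 of 8 class 4 libraries and 6 of 8 class 2 libraries. Differences of these 4 enzymes lay between −2.63 and −2.34, with adjusted p between 0.195 and 0.413 in limma.

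The class 4 minus class 2 difference of Aldh1l1 was −0.50 (SE 1.16; limma, adjusted p = 0.868). TGA number 2 class 4, the library with the fewest genes, had Aldh1l1 at 7.97 and Fah at 14.40 and the other 8 enzymes at 0. Fah was above 0 in 24 of 24 libraries, with 11.7 ± 1.85 (SD, n = 24). It stood at 13.71, 14.40, 12.73 and 13.42 in TGA class 4, against 13.27, 11.05, 8.86 and 10.26 in TGA class 2. In WT, Fah stood at 13.71, 10.87, 10.76 and 12.56 in class 4, against 12.32, 10.57, 12.08 and 11.35 in class 2. The class 4 value was the higher in 7 of 8 pairs of genotype and number. The difference over both genotypes was 1.55 (SE 0.64; limma, adjusted p = 0.283) and did not pass. Of the 10 enzymes 9 had a negative class 4 minus class 2 difference and Fah a positive one, with a median of −2.44, beside −0.23 over all genes tested, of which 57.8% were negative.

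Within TGA, Ftcd fell by 5.89 in class 4 against class 2 (SE 1.52; limma, adjusted p = 0.0445), while 41 of the 4875 genes, 0.841%, passed. The other TGA differences did not pass. The nearest were those of Aspg (−6.20, SE 1.66, limma adjusted p = 0.0561), Uroc1 (−6.01, SE 1.68, limma adjusted p = 0.0683) and Sds (−4.77, limma adjusted p = 0.0930). Fah had a difference of 2.71 (SE 0.90; limma, adjusted p = 0.125). In all, 15 of 40 enzyme values in TGA class 4 were above 0, against 37 of 40 in TGA class 2. The TGA call of Ftcd was lost without each TGA number (limma, adjusted p = 0.148, 0.200, 0.179 and 0.117 for numbers 1 to 4) and without WT numbers 2, 3 or 4 (limma, adjusted p = 0.0652, 0.0717 and 0.0689). Differences over these ranged between −6.62 and −5.36. Without the 4 libraries over 7000 genes, none of which is in TGA class 2 or class 4, Ftcd, Aspg, Uroc1 and Fah passed in limma (adjusted p = 0.0201, 0.0239, 0.0377 and 0.0403), while 79 of all 4875 genes, 1.62%, passed.

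Within WT, 0 of the 4875 genes (0%) passed in limma between class 4 and class 2, and 226 had an unadjusted p under 0.05. The WT difference of Ftcd was −4.33 (SE 1.52; limma, adjusted p = 0.999), and that of Uroc1 −2.80. Of the 16 values above 0 in WT class 4, 10 came from WT number 1, the class 4 library with 14469 genes above 0; the other 3 WT class 4 libraries held 3, 1 and 2 of the 10 enzymes. The difference between TGA and WT in the class 4 minus class 2 contrast was itself tested, and 0 genes (0%) passed in limma, with 309 at an unadjusted p under 0.05. For Ftcd that difference was −1.56 (SE 2.16; limma, adjusted p = 0.952), for Sds −4.48 and for Aspg −4.70 (SE 2.35), both with adjusted p of at least 0.767 in limma. The TGA and WT contrasts were thus not shown to differ.

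**Figure D3:**
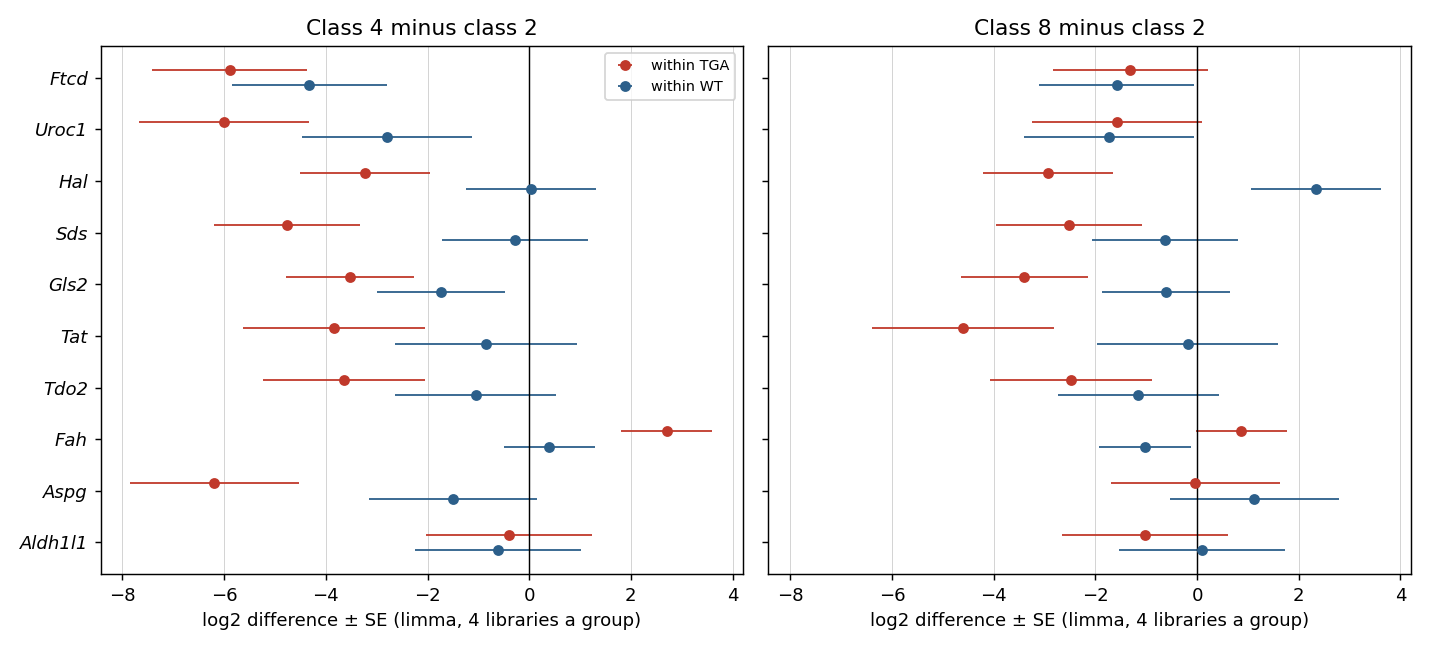
Log2 difference ± SE (limma, 4 libraries a group) of each enzyme for class 4 minus class 2 (left) and class 8 minus class 2 (right), within TGA and within WT. In class 4 against class 2 within TGA, 9 enzymes lie below 0 and Fah at 2.71; both panels share the class 2 libraries.

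Class 8 libraries lay nearer to class 2 for Ftcd, Uroc1 and Aspg. In class 8, Ftcd stood at 6.55, 7.01, 5.25 and 5.50 in TGA and at 5.86, 4.44, 5.70 and 1.68 in WT, all above 0. Uroc1 stood at 6.55, 6.89, 0.59 and 6.74 in TGA class 8 and at 6.52, 7.13, 7.05 and 0 in WT class 8. Aspg stood at 7.88, 6.72, 6.43 and 4.80 in TGA class 8 and at 5.69, 6.86, 0 and 4.22 in WT class 8. The class 8 minus class 4 differences were 4.39 for Aspg (SE 1.17), 3.66 for Ftcd (SE 1.08) and 2.75 for Uroc1 (SE 1.18), each with a limma adjusted p of 0.718. In that comparison 0 genes (0%) passed in limma, and 321 had an unadjusted p under 0.05. Ftcd was the higher in class 8 in 7 of 8 pairs of genotype and number. The hepatocyte markers summed to a median of 48.1 in class 8 and 55.1 in class 4. Within TGA these medians were 68.6 in class 8 and 58.1 in class 4, and within WT 36.4 and 38.4. The part of the markers in these differences was not tested. Without the 4 libraries over 7000 genes, Aspg (5.18) and Ftcd (4.64) passed, both with a limma adjusted p of 0.0443, while 5 of all genes, 0.103%, passed. The class 4 libraries enter this comparison and the previous one, so the values of the 2 are not independent.

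Fah in class 8 stood at 10.95, 11.21, 16.41 and 8.35 in TGA and at 10.97, 9.16, 11.21 and 10.87 in WT. The value 16.41, in TGA number 3, equals the highest value of the normalised table, which 20 of 24 libraries share for some gene. The class 8 minus class 4 difference of Fah was −1.63 (SE 0.64; limma, adjusted p = 0.718). Without TGA number 3 it was −2.55 (SE 0.49; limma, adjusted p = 0.0318), and within TGA −3.68 (limma, adjusted p = 0.0388), with 2 of all genes, 0.041%, passing in each, against −1.84 within TGA with all numbers (limma, adjusted p = 0.628).

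Against class 2, class 8 gave 1 passing gene over both genotypes (0.0205%), none of them an enzyme described here, and 359 with an unadjusted p under 0.05. The largest class 8 minus class 2 differences were those of Tat (−2.40) and Gls2 (−2.0, SE 0.89, limma adjusted p = 0.603), and the one for Ftcd was −1.45. Of the 10 enzymes 9 were negative, with a median of −1.51, beside −0.16 over all genes. Within TGA the class 8 minus class 2 and class 8 minus class 4 contrasts each had 0 passing genes (0%) in limma, with 348 and 379 genes at an unadjusted p under 0.05. Within WT they also had 0 (0%) each, with 237 and 223. The difference between TGA and WT in the class 8 minus class 2 contrast had 0 passing genes (0%) and 198 with an unadjusted p under 0.05 in limma. Hal had the largest such difference among the enzymes, −5.27 (SE 1.81; limma, adjusted p = 0.999). Hal stood at 0, 0, 1.18 and 0 in TGA class 8, against 0, 5.75, 5.13 and 0 in WT class 8, the reverse of class 2, where the highest values were in TGA.

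Across the 3 classes, the share of enzyme values above 0 was 77.5% in class 2, 38.8% in class 4 and 68.8% in class 8, and the median number of genes above 0 per library was 4328.5, 2650.5 and 2788.5. The TGA class 4 libraries held 3, 2, 4 and 6 of the 10 enzymes with 2434, 1624, 3440 and 2867 genes above 0. The TGA class 8 libraries held between 5 and 10 of the enzymes with 2110 to 9096 genes, and the TGA class 2 libraries between 8 and 10 with 2816 to 6468 genes. The share of values above 0 over all tested genes was not computed by class. Of the 31 enzyme values above 0 in class 4, 10 came from WT number 1. The part of library breadth in these shares was not tested.

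**Figure D4:**
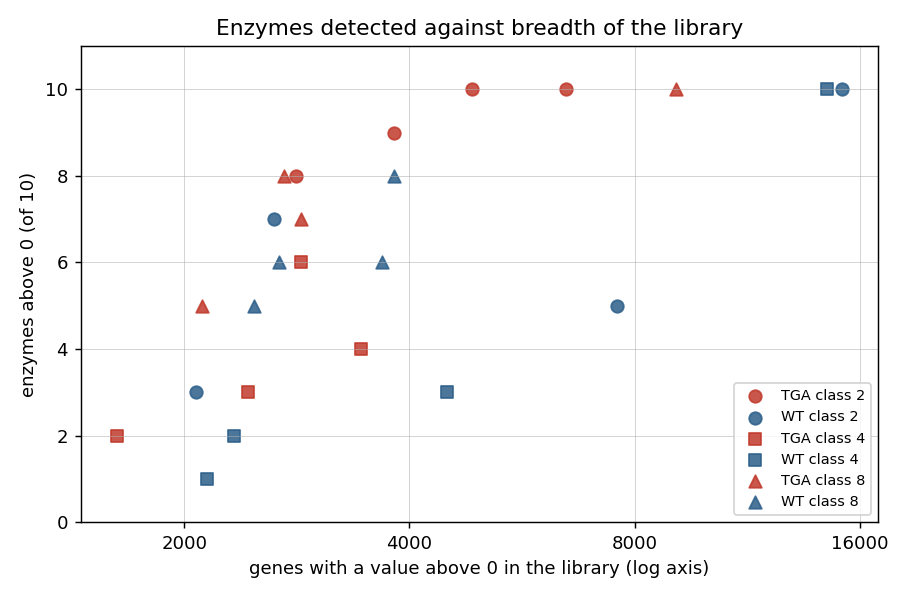
Number of the 10 enzymes above 0 (vertical axis) against the number of genes above 0 in the library (horizontal log axis), for 24 libraries marked by class and genotype. The class 4 libraries, except WT number 1 with 14469 genes, hold 1 to 6 enzymes, and the class 8 libraries hold 5 to 10.

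The levels of the enzymes were positively correlated across libraries, apart from those of Fah. Over the 24 libraries the median Pearson r of the 45 pairs was 0.39, and all 36 pairs without Fah were positive. The highest values were those of Ftcd with Aspg (0.72), Ftcd with Uroc1 (0.71) and Sds with Tdo2 (0.70). Fah had r between −0.53 (with Uroc1) and 0.23 (with Aldh1l1), with 7 of its 9 pairs negative. These correlations share libraries, their breadth and many zeros, and are given as a description.

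The tested genes most like each enzyme over the 24 libraries were, for Ftcd, Snord118 (r = 0.89), Thrsp (0.86) and Col18a1 (0.86). For Uroc1 they were Dhx16 (0.84), Snord118 (0.75) and Acin1 (0.73), and for Aspg Plxnb2 (0.85), Bcl9l (0.83) and Snord17 (0.78). For Aldh1l1 they were Sdc4 (0.82), the hepatocyte marker Apoa1 (0.81) and Hyou1 (0.81), and for Fah Baz2b (0.82), Pogz (0.70) and Arfgef3 (0.69). The genes nearest to Hal, Sds, Gls2, Tat and Tdo2 were Pqlc1 (0.94), Zfp526 (0.88), Serpinf1 (0.90), Slc39a14 (0.84) and Klf10 (0.85). The mean of the 10 enzymes was most like Bcl9l (0.88), Srsf5 (0.87), the urate oxidase gene Uox (0.85), Rrbp1 (0.84) and Apoe (0.84).

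The other genes of amino acid and folate breakdown were read from the same fits. Of 101 such genes 98 were in the table and 45 were tested. Between TGA and WT over all classes 0 of 45 passed in limma. Of these differences 40 were positive and 5 negative, with a median of 0.80, and with each library centred on its own median 34 were positive. The smallest p values were those of Aldh7a1, of lysine breakdown (2.68, SE 0.97, limma adjusted p = 0.322), Dbt, a subunit of the branched-chain keto acid dehydrogenase (−2.79, limma adjusted p = 0.379), and Sardh, sarcosine dehydrogenase (2.68, limma adjusted p = 0.435). In class 4 against class 2 over both genotypes 0 of 45 passed in limma, and 38 differences were negative and 7 positive with a median of −1.01. The smallest p values there were those of Cbs, which joins homocysteine to serine (−3.87, limma adjusted p = 0.0941), and Pipox, which oxidises pipecolate and sarcosine (−2.89, limma adjusted p = 0.160).

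Within TGA 1 of these 45 genes passed in class 4 against class 2. Ahcy, which splits S-adenosylhomocysteine in the methionine cycle, stood at 0, 0, 0 and 0 in TGA class 4, against 3.71, 5.17, 6.76 and 7.08 in TGA class 2. Its fitted difference was −5.68 (SE 1.46; limma, adjusted p = 0.0445). The call of Ahcy was kept in 5 of 16 alternatives and lost in 11; without the 4 libraries over 7000 genes the adjusted p was 0.0201 in limma. It was lost without TGA numbers 1, 2, 3 or 4 (limma, adjusted p = 0.0763, 0.171, 0.207 and 0.150, differences between −6.34 and −5.21) and without WT numbers 2, 3 or 4 (limma, adjusted p = 0.0661, 0.0717 and 0.0713, difference −5.68). It was also lost with no filter, with a pseudocount of 10, with genes detected in the model and with median centring (limma, adjusted p = 0.199, 0.0720, 0.148 and 0.0920). In this contrast 41 of the 45 differences were negative and 4 positive, with a median of −1.98. Amdhd1, the histidine enzyme between Uroc1 and Ftcd, was listed at 0 in all 4 TGA class 4 libraries and stood at 0, 3.34, 5.63 and 0 in TGA class 2. It is named because it completes the pathway, after its values were seen. In the remaining 12 comparisons 0 of the 45 genes passed in limma.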

How the data were processed

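The deposited table holds natural log values per gene symbol for 24 libraries. The labels state no unit. The scale was taken to be ln(count + 1) after quantile normalisation. A highest value shared within 1e-09 by 20 of 24 libraries was the ground for the normalisation, and the log of count + 1 was assumed. On that scale low values, such as Gls2 at log2 0.50 in TGA number 3 class 8, are not whole counts, so the unit remains uncertain. The submitters' processing notes name TopHat, edgeR and mm9. How reads were counted, with which annotation, is not given in the sources used here. Depth is therefore unknown, no intervals were computed, and the 24 columns matched the sample titles. Division by ln 2 gave the log2 scale. Read lengths were 75 bp, single-end, per the labels' protocols.

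The 4875 genes that reached a deposited value of 1 in 4 or more libraries were fitted with limma-trend (limma 3.58.1, R 4.3.3), with Benjamini-Hochberg adjustment and a threshold of 0.05. Class comparisons used all 24 libraries with 6 group means. TGA and WT over all classes were compared on the 8 means of genotype and number, where limma's prior carried 152 degrees of freedom and the residuals 6. Exact permutation tests used the same 8 means. Alternatives were other filters, a pseudocount of 10 in place of 1, no trend, the genes detected as a covariate, median centring, a replicate block, 24 libraries as samples, leaving out the libraries over 7000 genes and leaving out each number.

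The enzymes and lists were chosen with earlier results of these data known. All 10 enzymes are named; of the other breakdown genes those past the threshold are named, and up to 5 others per comparison with the smallest p; like genes are the 3 with the highest Pearson r per enzyme and the 5 for their mean. Of the like genes, the nearest is named for Hal, Sds, Gls2, Tat and Tdo2. Promoter windows are RefSeq sequences of GRCm38.p6. Figures were drawn with matplotlib 3.10.9 under Python 3.11.15.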

Additional observations from a re-analysis of the deposited data

Results flagged for a closer look

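Within each of the 60 sets of 4 libraries (10 enzymes in 6 groups), the highest or lowest library was set against the others, and 24 sets had a library whose gap to its nearest neighbour exceeded, as a share of the set's whole range, Dixon's 95% critical value. Chance gives about 1 in 20 such sets, and sets with 3 libraries at 0 pass whenever the fourth is above 0.

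WT number 1 class 4, with 14469 genes above 0, was the high library of its group for 7 enzymes: Ftcd (6.69), Hal (1.68), Sds (3.57), Gls2 (0.93), Tat (6.80), Tdo2 (4.05) and Aspg (6.26). WT number 1 class 2 was high for Hal (1.51) and Sds (4.72). In TGA class 4, number 1 was high for Tdo2 (6.73), and number 4 for Uroc1 (3.06) and Aspg (1.19).

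In TGA class 8, number 3 was low for Uroc1 (0.59) and high for Hal (1.18) and Gls2 (0.50), and number 4 was high for Tat (6.25). In TGA class 2, number 2 was low for Sds (0) and Tdo2 (3.37), number 1 low for Tat (3.65) and number 3 low for Aspg (5.47). In WT class 8, number 4 was low for Uroc1 (0) and high for Tdo2 (3.65), and number 2 was high for Sds (2.19) and low for Fah (9.16).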

How the results depend on the processing

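Of 241 recounts of enzymes called under an alternative, 206 kept the count within 1.5 times and 35 did not. Of 484 recomputed differences of single enzymes 446 kept their direction and call. TGA against WT over all classes had 1 enzyme called, and 0 with no filter, with no mean-dependent trend and with median centring, and 0 to 1 with a number left out. Within class 2 and within class 4, where 0 were called, leaving out a number gave 0 to 1. Without the libraries over 7000 genes class 4 gave 1, with 7 of all genes, 0.144%, passing. Class 4 against class 2 over both genotypes had 1 called, 2 under the stricter filter, 0 with no filter, with the genes-detected covariate and with median centring, and 0 to 1 with a number left out. Class 8 against class 4 had 0 called, 2 without the libraries over 7000 genes, and 0 to 1 with a number left out, also within TGA. Class 4 against class 2 within TGA had 1 called, 0 with no filter, with a pseudocount of 10, with the covariate and with median centring, 2 with no trend, 3 under the stricter filter, 3 with the replicate block, 4 without the libraries over 7000 genes, and 0 to 2 with a number left out. Over all genes that contrast gave 48 calls of 4875 with no trend and 37 of 2105 under the stricter filter. It gave 63 of 4875 with the replicate block and 79 of 4875 without the libraries over 7000 genes. Under the stricter filter, class 4 against class 2 over both genotypes gave 36 of 2105.

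Among values that passed no test, the TGA minus WT difference over all classes of Hal (0.00) turned to −0.034 with a pseudocount of 10 and −0.40 with median centring, and ranged between −0.39 and 0.39 with a number left out; that of Gls2 (0.03) turned to −0.37 with median centring and ranged between −0.37 and 0.46. With the covariate, the class 4 minus class 2 difference of Aldh1l1 was 0.41, and the class 8 minus class 2 differences of Hal, Fah and Aldh1l1 were 0.078, 0.26 and 0.42. With a number left out these 4 ranged between −1.19 and 0.22, −0.86 and 0.35, −1.19 and 0.45, and −1.52 and 0.071, and the class 8 minus class 2 difference of Aspg between −0.41 and 1.65. The cause of these changes was not tested.

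Over all genes, class 4 against class 2 within TGA gave 41 calls, and between 0 (no filter) and 79 (without the libraries over 7000 genes) under the alternatives; TGA against WT over all classes gave 24, and between 3 (median centring) and 95 (without WT number 1). Median centring set the median of all genes at −1.31 in the first of these contrasts, against −0.32 without it, and at −0.29 in the second, against 0.12. Deviations of libraries sharing genotype and number correlated with a median r of 0.03, over 0.1 in 2 of 24 pairs and up to 0.43 in WT number 1. The numbers were therefore not used as pairs in the tests, and whether they mark shared animals is not known. The replicate block differed by comparison. For class comparisons it matched libraries of the same genotype and number. There Ftcd kept its call in class 4 against class 2 (limma, adjusted p = 0.0170), and Aspg and Uroc1 passed within TGA. For TGA against WT it matched the genotypes by title number alone. Deviations of TGA and WT libraries sharing a number correlated with a median r of −0.0004. Aldh1l1 kept its call in that model (limma, adjusted p = 0.0139). The unknown depth and the many values at 0 limit every statement on a gene listed at 0.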

Other observations

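Agxt, the glyoxylate aminotransferase gene, stood at 6.27, 0, 3.29 and 4.77 in TGA class 4, against 0 in all 4 libraries of TGA class 2. In WT libraries Agxt stood at 5.45, 0, 0 and 0 in class 4, against 1.62, 0, 5.87 and 0 in class 2. It did not pass between these classes within TGA in limma (adjusted p = 0.295) and was picked after its values were seen. Values of Dbt lay between 0 and 4.65 in TGA libraries, against 0.48 to 8.01 in WT libraries.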
